A study of Mus musculus with 30 samples.

Results

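Fatty acid oxidation and ketogenesis were followed in the livers of adult mouse offspring through 31 genes, chosen by gene symbol. They cover the carnitine shuttle, mitochondrial and peroxisomal beta-oxidation, ketone body formation, the nuclear receptor PPAR alpha and its targets Fgf21, Pdk4, Angptl4 and Vnn1. Of these, 30 have 1 probe set each among the 22206 probe sets tested. Etfb, the partner subunit of Etfa, has no probe set under that symbol in the annotation used and was not analysed here.

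In beta-oxidation, fatty acids are carried into mitochondria as carnitine esters and shortened in repeated rounds of dehydrogenation, hydration, a second dehydrogenation and thiolysis, while peroxisomes shorten the longest chains. The acetyl-CoA that the liver does not burn is turned into ketone bodies and exported as fuel for other organs. PPAR alpha is activated by fatty acids and induces many genes of this pathway in fasted liver.

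Offspring are named by the diet of the sperm donor and then by that of the vasectomised male that gave the seminal plasma. NN stands for a normal protein diet (NPD) of both males, LL for a low protein diet (LPD) of both, NL for NPD sperm with LPD seminal plasma and LN for LPD sperm with NPD seminal plasma. Conception was by artificial insemination of superovulated dams, and dams and offspring of all groups ate standard chow. Each animal, a C57/BL6J mouse aged 16 weeks, gave a liver for 1 Clariom S array. The LL group had 5 females and 4 males, and the other groups had 3 females and 4 males apiece. Litter mates of opposite sex may be among them, going by the methods. Litters are not in the labels, so arrays were treated as independent, and their number limits the precision. Values are log2 signals as deposited, on which a difference of 1 is a doubling. Calls were made at a Benjamini-Hochberg adjusted p under 0.05, and members were also counted at an unadjusted p under 0.05.

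The hepatocyte markers averaged between 12.54 and 12.73 on 29 arrays, as liver should. The other array, NL replicate 6, labelled male, was weak. Its hepatocyte markers averaged 11.57, its median correlation with the other arrays was 0.75 against at least 0.97 elsewhere, and 24 of the 30 genes were lower on it than on each other array. Its Y-linked signals were near those of females (Eif2s3y 3.24, Kdm5d 3.52 and Uty 2.41). They also lay below its background controls, which averaged 5.13 against 3.87 to 4.25 on the other arrays. Its hybridisation controls averaged 7.61 against 10.14 to 10.95. On so weak an array these genes cannot show the sex. With all arrays the male results thus rest in part on an array whose sex these genes did not bear out. Results are therefore given with all 30 arrays and without this one. On the array labelled LL replicate 1, female, Y-linked signals lay between those of the sexes (Eif2s3y at 6.56, against at most 3.30 on the other females and at least 7.76 on the 15 males without NL replicate 6). NN replicate 5 carried exocrine pancreas markers, at a mean of 9.05 against 5.00 to 5.33 on 27 other arrays. Without it no member passed the adjusted threshold in any comparison of groups. None did with it either, so this cannot show whether it shifted the members. Without it 1 member differed between LN and NN at an unadjusted p under 0.05, against 2 with all arrays.

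The male NL replicate 4 also stood apart, in the genes described here and over the whole array. Its signals over all probe sets had an SD of 2.15, against 2.18 to 2.30 on the 28 arrays without NL replicates 4 and 6. Their median was 5.57 against 5.42 to 5.54. Its median correlation with the other arrays was 0.973, against 0.979 to 0.984 on the 14 other males. NL replicate 4 had the lowest signal of 15 males in 23 of the 30 genes and the highest in none of them. The same count was not made over all probe sets. Ehhadh, the peroxisomal bifunctional enzyme, was at 9.09 on this array against a range of 10.26 to 10.79 on the 14 other males. Bdh1, which reduces acetoacetate to 3-hydroxybutyrate, was at 8.82 against 9.95 to 10.55. Decr1, needed for polyunsaturated fatty acids, was at 7.83 against 8.25 to 9.19. These low signals thus spanned mitochondrial, peroxisomal and ketogenic genes. The hepatocyte markers were at 12.71 on this array, within the range of the others. The 12 acute phase genes, a list drawn up after these values were seen, were each higher on it than on the 28 arrays other than NL replicate 6, and their mean was 12.14 against 8.05 to 9.19 on 27 arrays (NN replicate 5, left out of that range, was at 8.12). Saa2, a serum amyloid A, was at 12.89 against 6.03 to 8.58, and Lcn2, lipocalin 2, at 13.06 against 6.57 to 9.46. Whether the acute phase had a part in the low oxidation genes of this animal was not tested. The comparisons of NL with NN and LN and the interaction are also given without it. That choice was made after the data were seen, the low signals of these genes among them. A rise of these genes in NL without this array was thus built into the choice. Those fits show only how far the NL differences depend on it.

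**Figure D1:**
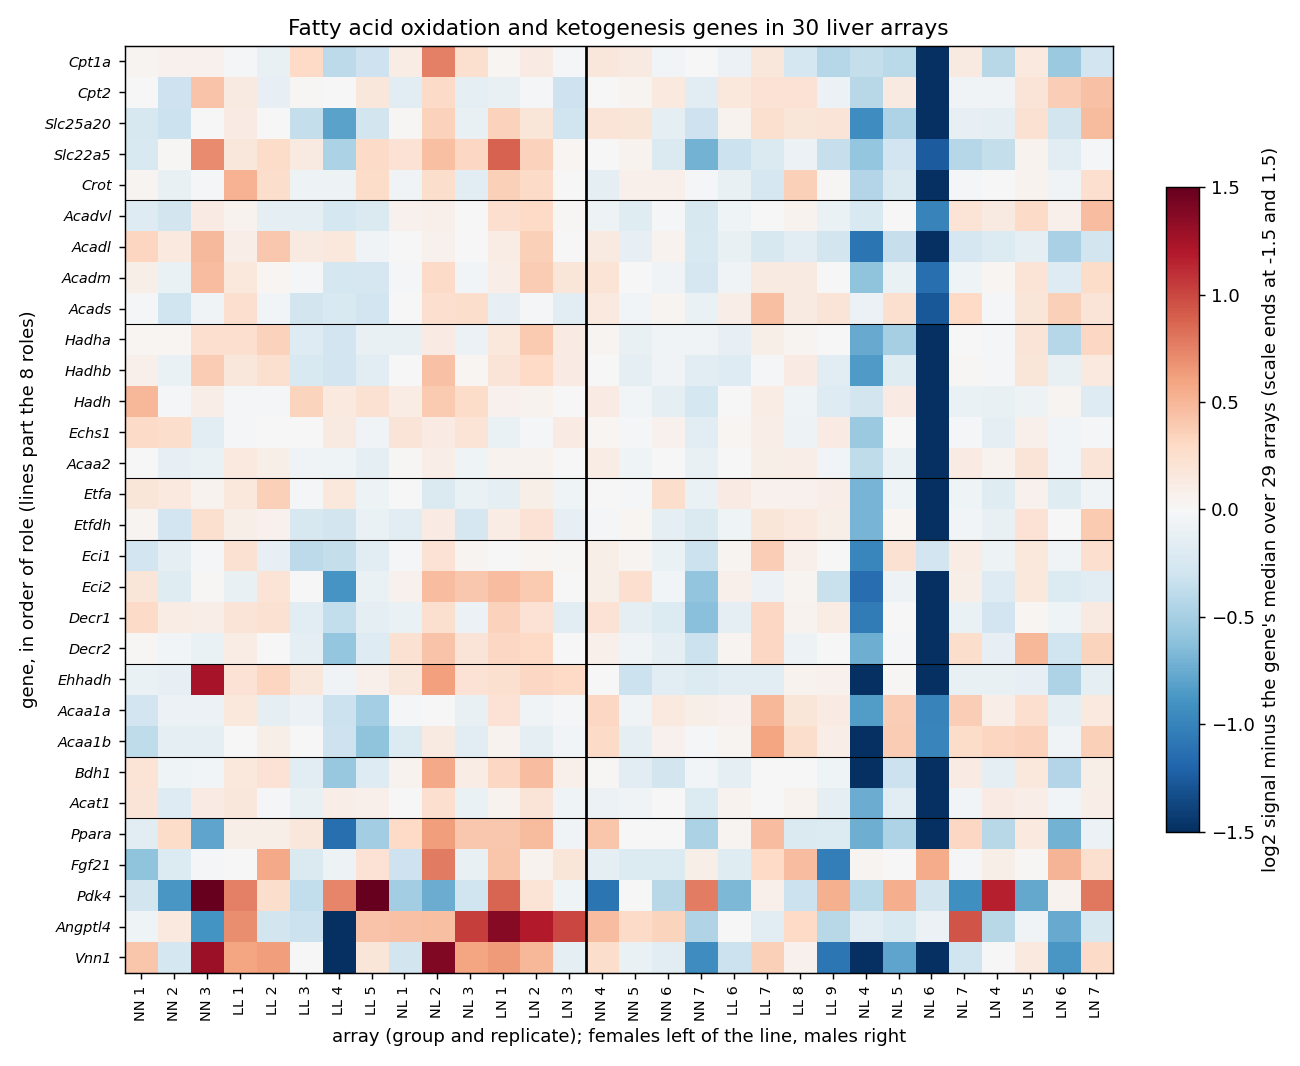
Log2 signal of 30 fatty acid oxidation and ketogenesis genes (rows, in order of role) on 30 liver arrays (columns, females left and males right), as the difference from each gene's median over 29 arrays without NL replicate 6. The columns of NL 6 and NL 4 are blue in most rows, NN 3 is red at Ehhadh (11.96) and Pdk4 (8.18), and LL 4 is blue at Angptl4 (7.12) and Vnn1 (5.42).

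By role, differences from NN without NL replicate 6 were small in each group. In LL livers the 25 genes outside the PPAR alpha group differed by -0.19 (Cpt1a) to 0.12 (Crot) on the log2 scale, and Ppara and its targets by -0.32 to 0.35. In LN livers all 5 genes of the PPAR alpha group were above 0, from 0.00 to 0.40, as were the 4 auxiliary enzymes for unsaturated chains (Eci1, Eci2, Decr1 and Decr2, 0.07 to 0.23) and both ketone body genes (Bdh1 and the thiolase Acat1, 0.13 and 0.10). In NL livers the 3 peroxisomal genes were below 0 (-0.17 to -0.04), as were both ketone body genes (-0.12 and -0.10) and both genes of electron transfer (-0.27 and -0.11). The signs of the peroxisomal and ketone body genes depended on NL replicate 4, which was singled out in part for its low signals in these genes. Without NL replicates 4 and 6 the peroxisomal genes were above 0 (0.12 to 0.16), as were Bdh1 (0.16) and Acat1 (0.02), while Etfa was at -0.16 and Etfdh at -0.01. The signs by role are counts without a test, and few of the single genes passed one.

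In offspring with LPD from both males, no member stood apart from NN offspring. No gene of the 30 was higher or lower in LL than in NN livers at an unadjusted p under 0.05, with all arrays or without NL replicate 6, and the smallest adjusted p was 1 and 0.73 (limma). Over all probe sets, 2.23% were higher and 1.15% lower at this threshold with all arrays, and 5.60% and 2.83% without NL replicate 6. The median log2 difference of the 30 genes was 0.02, beside 0.01 over all probe sets. The main fits of both sexes together had no sex term, though LL held 5 females and 4 males and NN 3 and 4. In LL females the median was -0.07, with 23 of 30 genes below 0. In LL males it was 0.07, with 24 above 0. These signs are counts without a test. Cpt1a, which makes the carnitine esters and limits entry into mitochondria, had the smallest p without NL replicate 6. It ranged from 10.21 over a median of 10.31 to 10.42 in NN livers, where its SD was 0.07 (n = 7), and from 9.82 to 10.55 in LL livers. The groups overlapped, and the log2 difference was -0.19 (SE 0.14, adjusted p = 0.73, exact two-sided permutation p = 0.070). Pdk4, the kinase that shuts off pyruvate oxidation when fat is burnt, differed by 0.35 on the log2 scale (SE 0.34), with signals from 5.46 to 8.18 in NN and from 5.87 to 8.38 in LL livers.

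In LN offspring, from LPD sperm with NPD seminal plasma, 24 of the 30 genes had differences from NN above 0, and 2 were higher at an unadjusted p under 0.05. These were Acadvl and Fgf21. The 24 are a count of signs without a test. No member passed the adjusted threshold. The share of 6.67% of members that were higher stood beside 2.56% of all probe sets with all arrays and 6.87% without NL replicate 6. No member was lower, beside 2.09% and 4.69%. The median log2 difference was 0.11 over the members and 0.02 over all probe sets. With all arrays, leaving out any of NN replicates 1, 2, 5 and 6 or LN replicates 1, 6 and 7 left 1 of the 2, beside 3.44% to 5.01% of all probe sets in either direction.

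Acadvl, the very long-chain acyl-CoA dehydrogenase, catalyses the first dehydrogenation of long chains at the inner mitochondrial membrane. Its signal ranged from 10.01 over a median of 10.09 to 10.40 in NN livers and from 10.30 over 10.53 to 10.74 in LN livers. The groups overlapped through a single NN female, NN replicate 3, at 10.40, above the LN animals at 10.30 and 10.36. Means were 10.15 ± 0.14 (SD, n = 7) in NN and 10.50 ± 0.15 (SD, n = 7) in LN livers. The log2 difference of 0.34 had a SE of 0.13 with all arrays (adjusted p = 1) and of 0.09 without NL replicate 6 (limma, adjusted p = 0.152), and the exact permutation p was 0.00233, where the smallest possible is 0.000583. Over 40 settings it ran from 0.30 to 0.38, with adjusted p from 0.0987 to 1. LL livers, also from LPD sperm, were at 10.01 to 10.34 with a mean of 10.19 ± 0.11 (SD, n = 9), near the NN mean.

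Fgf21, a hormone that the liver secretes in fasting, gave signals close to the background control probe sets (3.87 to 4.25 on 29 arrays). It ranged from 3.83 over 4.24 to 4.52 in NN and from 4.45 over 4.62 to 4.94 in LN livers. One NN animal, NN replicate 7, lay within the LN range. The log2 difference was 0.40 (SE 0.18 without NL replicate 6, adjusted p = 0.379), with an exact permutation p of 0.00233.

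**Figure D2:**
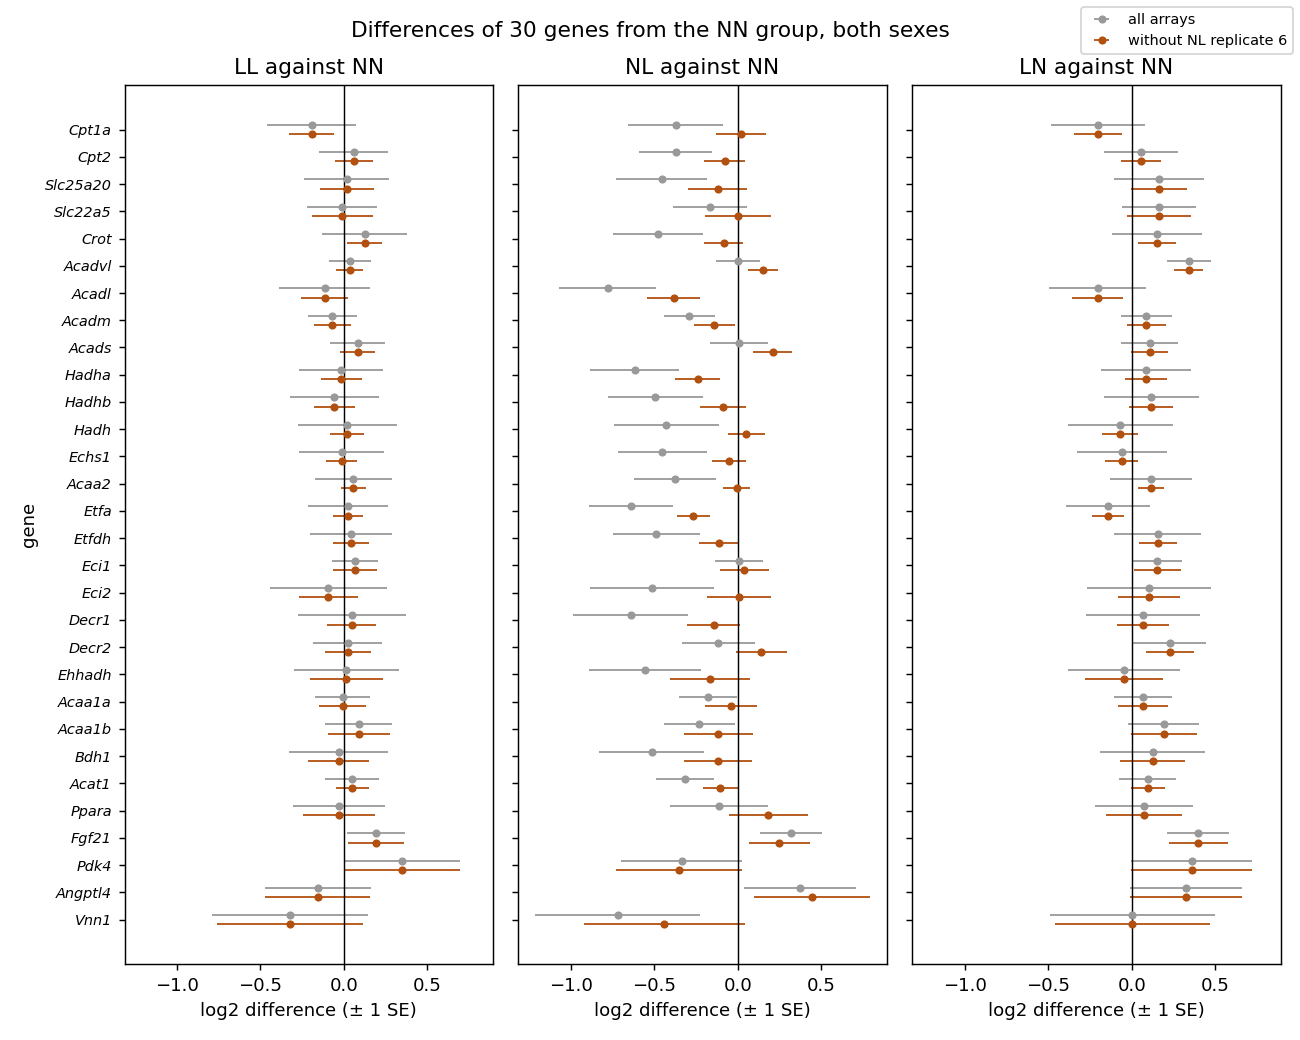
Log2 differences of 30 genes from the NN group (x axis) for LL, NL and LN offspring of both sexes, with all 30 arrays (grey) and without NL replicate 6 (orange); bars are 1 SE of the limma fit. The NL points move right when NL replicate 6 is left out, their median going from -0.38 to -0.08, while Acadvl and Fgf21 lie at 0.34 and 0.40 in LN offspring.

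NL offspring, from NPD sperm with LPD seminal plasma, had differences from NN below 0 in 25 of the 30 genes with all arrays. The number was 19 without NL replicate 6 and 8 without NL replicates 4 and 6. These signs are counts without a test, and the share of all probe sets below 0 was not counted. The median log2 difference was -0.38, then -0.08, then 0.08. These fits had no sex term, and without both arrays NL held 3 females and 2 males against 3 and 4 in NN. In that set of arrays 21 of the 30 genes were lower in males than in females over the 4 groups. In males alone the median without both arrays was 0.02. The part of the sex makeup in the rise was not tested. With all arrays 3 members were lower at an unadjusted p under 0.05, which is 10% of them beside 9.27% of all probe sets, and none was higher beside 14.6%. Without NL replicate 6, 2 members (6.67%) were lower beside 5.98%, and none was higher beside 8.08%. Without both arrays, 3 were higher (10%) beside 6.12%, and none was lower beside 4.80%. No member passed the adjusted threshold under any of these, the smallest adjusted p with all arrays being 0.146. The count with all arrays rose to 14 without NL replicate 2, to 6 without NL replicate 1 or 7 and to 5 without NL replicate 5 or NN replicate 7, while 24.0% to 28.8% of all probe sets passed in either direction in those 5 fits.

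Etfa, the alpha subunit of the flavoprotein that collects electrons from the acyl-CoA dehydrogenases, had an unadjusted p under 0.05 with and without the weak array. NN livers ranged from 10.89 over 11.05 to 11.26. The 6 NL livers without replicate 6 ranged from 10.29, in NL replicate 4, over 10.91 to 10.99. The log2 difference was -0.64 (SE 0.25, adjusted p = 0.155) with all arrays and -0.27 (SE 0.10, adjusted p = 0.22) without NL replicate 6, and the exact permutation p were 0.00699 and 0.014. Without NL replicates 4 and 6 the means differed by -0.16, with an exact permutation p of 0.0303 but an unadjusted p of 0.067 in limma.

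Acadl, the long-chain acyl-CoA dehydrogenase, ranged from 10.13 to 10.85 in NN livers and from 9.27 to 10.42 in the 6 NL livers. Its log2 difference was -0.78 (SE 0.29, adjusted p = 0.146) with all arrays and -0.38 (SE 0.16, adjusted p = 0.272) without NL replicate 6. Without NL replicates 4 and 6 the means differed by -0.22, with an exact permutation p of 0.124. Hadha, the alpha subunit of the mitochondrial trifunctional protein, was at -0.62 with all arrays (SE 0.27, adjusted p = 0.175) and at -0.24 without NL replicate 6, the latter with an exact permutation p of 0.124.

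The difference between the mismatched NL and LN groups moved with the same 2 arrays. With all arrays 10 of the 30 genes were lower in NL than in LN livers at an unadjusted p under 0.05, 33.3% beside 8.53% of all probe sets, and none was higher beside 6.09%. Without NL replicate 6 the count was 3 (10%) beside 4.21%, with none higher beside 2.68%, and without NL replicates 4 and 6 it was 0 beside 2.95%, with none higher beside 1.81%. With all arrays it was 18 without NL replicate 2, 16 without NL replicate 5, 6 without LN replicate 1 or 7 and 4 without NL replicate 4, beside 11.2% to 18% of all probe sets in either direction in those fits. The 3 were Acadvl at -0.19 (SE 0.09, adjusted p = 0.695), Hadha at -0.33 (SE 0.13, adjusted p = 0.643) and Etfdh, the oxidoreductase that hands the electrons on to ubiquinone, at -0.27 (SE 0.12, adjusted p = 0.675).

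The groups form a design of sperm diet by seminal plasma diet. Comparing LPD with NPD sperm, 2 members had an unadjusted p under 0.05 with all arrays, 6.67% beside 4.81% of all probe sets, and 3 without NL replicate 6, 10% beside 6.52%. Pdk4 was at 0.53 (SE 0.25, adjusted p = 0.764) and Crot, which passes peroxisomal products to carnitine, at 0.18 (SE 0.08, adjusted p = 0.75) in the fit without that array. Cpt1a was at -0.21 (SE 0.10, adjusted p = 0.766). Comparing LPD with NPD seminal plasma, 1 member (3.33%), Acadm, had an unadjusted p under 0.05 with all arrays, at -0.22 (SE 0.11, adjusted p = 0.442), beside 11.0% of all probe sets. Without NL replicate 6 there was none, beside 8.55%, and Acadm was at -0.15 (SE 0.08).

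The interaction of both diets, LL minus LN minus NL plus NN, had 3 members at an unadjusted p under 0.05 in either fit, 10% beside 12.2% of all probe sets with all arrays and 12.6% without NL replicate 6. Without NL replicates 4 and 6 there were 5, 1 higher and 4 lower, beside 12.1%. In that fit 25 of the 30 genes were below 0, a count of signs without a test. Acadvl had an interaction of -0.45 (SE 0.12, adjusted p = 0.107) without NL replicate 6, with means of 10.50 in LN and 10.30 in NL livers above 10.19 in LL and 10.15 in NN livers. Etfa showed the opposite sign, 0.43 (SE 0.13, adjusted p = 0.153), with NN and LL means of 11.07 and 11.09 and LN and NL means of 10.93 and 10.80. Acadl was at 0.47 (SE 0.21, adjusted p = 0.353), and at 0.31 (unadjusted p = 0.103) without NL replicates 4 and 6, where Acadvl was at -0.50 (adjusted p = 0.0882) and Etfa at 0.33 (adjusted p = 0.221). Over the settings tried, Acadvl ran from -0.50 to -0.23 with adjusted p from 0.068 to 0.596, and Etfa from 0.33 to 0.90 with adjusted p from 0.153 to 0.474.

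**Figure D3:**
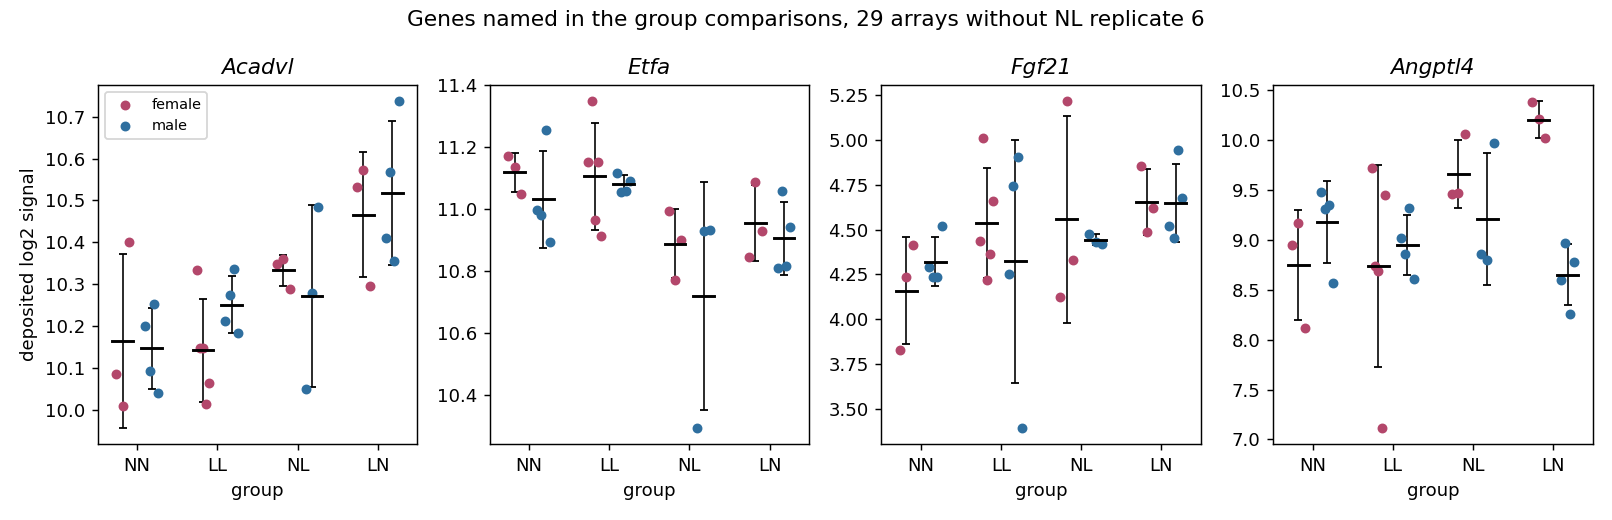
Log2 signal (y axis, not starting at 0) of Acadvl, Etfa, Fgf21 and Angptl4 in the 4 groups (x axis) in females and males on 29 arrays without NL replicate 6; points are animals, thick bars means and thin bars 1 SD. Acadvl is highest in LN livers, Etfa is lower in the mismatched groups, and LN females (10.02 to 10.39) lie above LN males (8.26 to 8.97) for Angptl4.

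By sex, the counts against NN were small apart from NL males. In females no member had an unadjusted p under 0.05 for LL, beside 4.30% of all probe sets with all arrays and 11.3% without NL replicate 6. For NL females the count was 1 (3.33%) and then 2 (6.67%), beside 3.38% and 9.53%, and for LN females it was 1 and then 2, beside 2.96% and 8.02%. In males no member reached it for LL, beside 1.93% and 5.03%. LN males had 1 and then 2 such members, beside 4.72% and 12.1%.

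Angptl4, a secreted inhibitor of lipoprotein lipase and a target of PPAR alpha, was among those counted in both mismatched groups of females, with Ppara in NL and Acadvl in LN females. NN females were at 8.95, 9.17 and 8.12, NL females at 9.46, 9.47 and 10.06 and LN females at 10.39, 10.21 and 10.02. Neither of the mismatched groups overlapped with NN, though 3 animals against 3 cannot give an exact permutation p below 0.1. The log2 difference was 1.46 (SE 0.42, adjusted p = 0.395) in LN and 0.91 (SE 0.42, adjusted p = 0.503) in NL females without NL replicate 6. LN males, at 8.60, 8.97, 8.26 and 8.78, lay low against NN males at 9.48, 9.31, 9.35 and 8.57. The LN difference of males minus that of females was -1.98 (SE 0.55, unadjusted p = 0.00125, adjusted p = 0.373). It was the only member at an unadjusted p under 0.05 in that test, 3.33% beside 2.74% of all probe sets with all arrays and 7.10% without NL replicate 6.

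Ppara itself was at 9.57, 10.01 and 8.94 in NN females and at 10.03, 10.35 and 10.14 in NL females, which lay above them on each array. The log2 difference was 0.67 (SE 0.31, adjusted p = 0.506) without NL replicate 6, with an exact permutation p of 0.1, the smallest possible. NL males had 10.04 in replicate 7, 9.27 in replicate 5 and 9.00 in replicate 4, against 10.15, 9.73, 9.72 and 9.25 in NN males. Over 29 arrays, with group and sex means removed, Decr2, Cpt1a and Angptl4 followed Ppara most closely among the members, with Pearson r of 0.82, 0.74 and 0.70. Pdk4 was the only member with a negative r, -0.57. The 29 arrays include NL replicate 4, which was low in most members, and these r were not computed without it or within each sex. Whether shared processing or RNA quality had a part in these r was not tested.

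In NL males 19 of 30 genes (63.3%) were lower than in NN males at an unadjusted p under 0.05 with all arrays, beside 32.8% of all probe sets in either direction. Without NL replicate 6 there were 4 (13.3%), beside 11.5%, and without NL replicates 4 and 6 there were 0, beside 5.89%. The median log2 difference was -0.76, then -0.22, then 0.02. No member passed the adjusted threshold in these fits. Leaving out an ordinary array of this group instead, NL replicate 5 or 7, brought 20 and 22 members past it, beside 25.0% and 29.2% of all probe sets, with the weak array and NL replicate 4 then 2 of the 3 males. Acadl was at 9.27, 10.02 and 10.11 in the NL males without replicate 6, all below the NN males at 10.50, 10.24, 10.41 and 10.13. The difference was -0.52 (SE 0.16, adjusted p = 0.24), and the exact permutation p of 0.0571 is the smallest that 3 against 4 animals allow. Without NL replicate 4 as well the means of Acadl differed by -0.25, in 2 animals. Bdh1 went from -1.06 (SE 0.36, adjusted p = 0.0862) with all arrays to 0.01 without NL replicates 4 and 6.

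The NL difference of males minus that of females had 5 members (16.7%) at an unadjusted p under 0.05 with all arrays, beside 6.28% of all probe sets, 3 (10%) without NL replicate 6, beside 4.98%, and 0 without NL replicates 4 and 6, beside 3.59%. The LL difference had none, beside 2.39% and 6.49%. Across the 16 comparisons of groups, no member passed the adjusted threshold in any with all arrays or without NL replicate 6, where 0.0225% and 0.180% of all probe sets passed in at least 1.

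The clearest differences lay between the sexes. Over the 4 groups, 4 members were lower in males at an adjusted p under 0.05 without NL replicate 6, which is 13.3% beside 5.65% of all probe sets in either direction, and 1 with all arrays, 3.33% beside 2.51%. At an unadjusted p under 0.05, 10 members were lower in males (33.3% beside 8.67%) and 1 was higher (3.33% beside 8.58%) without NL replicate 6. With all arrays 8 were lower (26.7% beside 6.85%) and none was higher (beside 6.27%). The lower ones were spread over the carnitine shuttle, the mitochondrial cycle, the peroxisome and ketone body formation.

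Acadl ranged from 10.31 over 10.48 to 10.85 in 14 females and from 9.27 over 10.13 to 10.50 in 15 males. Of the males, 13 lay below the lowest female, and the male mean was the lower in each of the 4 groups. The log2 difference of males from females was -0.43 (SE 0.08, adjusted p = 0.000474), a 1.35-fold difference, without NL replicate 6, and -0.59 (SE 0.17, adjusted p = 0.0676) with all arrays. Without NL replicate 4 as well it was -0.37 (adjusted p = 0.000474).

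Slc22a5, the plasma membrane carnitine transporter, was the member that passed with all arrays too. It ranged from 7.13 over 7.85 to 8.50 in females and from 6.90 over 7.39 to 7.66 in males. The ranges overlapped, with 10 of 14 females above the highest male. Males differed from females by -0.50 on the log2 scale (SE 0.11, adjusted p = 0.00271) without NL replicate 6 and -0.55 (SE 0.12, adjusted p = 0.00552) with all arrays.

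Ehhadh ranged from 10.60 over 10.94 to 11.96 in females and from 9.09 over 10.58 to 10.79 in males, with 11 females above the highest male. The highest female was NN replicate 3 and the lowest male NL replicate 4. The log2 difference was -0.53 (SE 0.14, adjusted p = 0.0163) without NL replicate 6, -0.67 (SE 0.19, adjusted p = 0.0635) with all arrays and -0.40 (SE 0.11, adjusted p = 0.0206) without NL replicates 4 and 6.

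Hadh, which oxidises short-chain 3-hydroxyacyl-CoA in the third step of the mitochondrial round, ranged from 10.99 over 11.12 to 11.51 in females and from 10.74 over 10.93 to 11.13 in males. Its log2 difference was -0.23 (SE 0.07, adjusted p = 0.0405) without NL replicate 6, but the call ended without NL replicates 4 and 6 (-0.20, adjusted p = 0.0816) and with all arrays (-0.43, SE 0.21, adjusted p = 0.373).

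**Figure D4:**
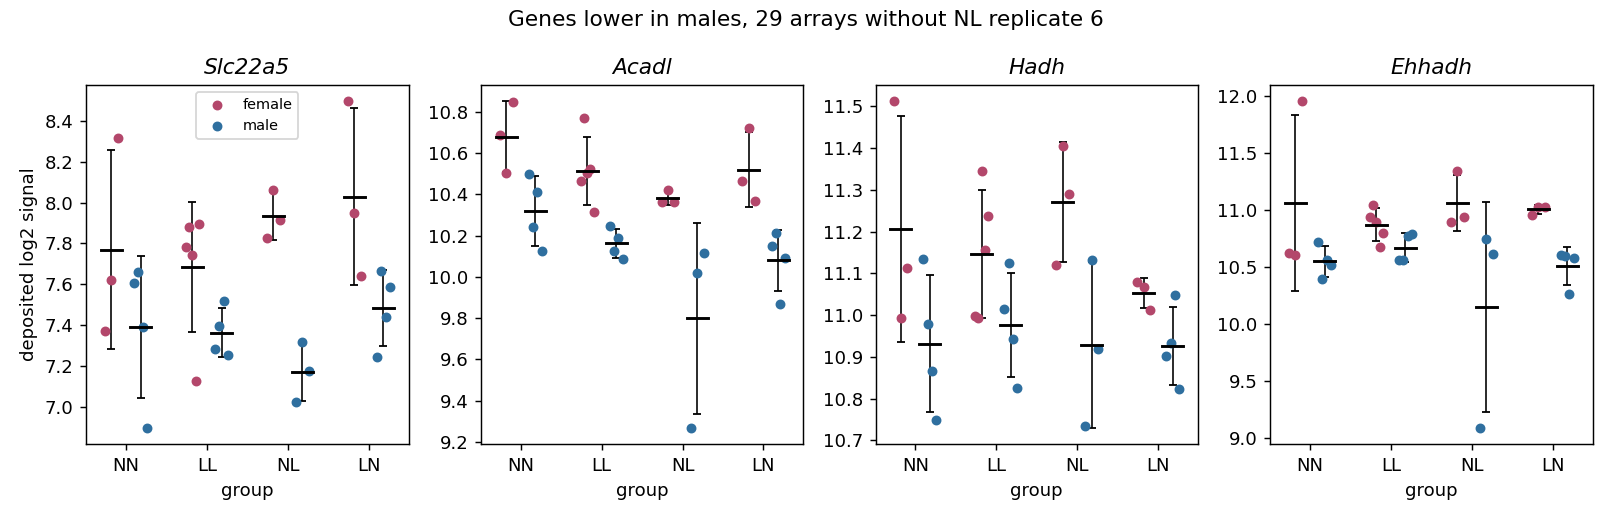
Log2 signal (y axis, not starting at 0) of Slc22a5, Acadl, Hadh and Ehhadh in the 4 groups (x axis) in females and males on 29 arrays without NL replicate 6; points are animals, thick bars means and thin bars 1 SD. Male means lie below female means in each of the 4 groups, and the low male point in the NL group is NL replicate 4 (Acadl 9.27, Ehhadh 9.09).

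Without NL replicate 6 and LL replicate 1, whose Y-linked signals were at odds with its label, the differences were -0.44 for Acadl (adjusted p = 0.000634), -0.50 for Slc22a5 (adjusted p = 0.00412), -0.53 for Ehhadh (adjusted p = 0.0218) and -0.24 for Hadh (adjusted p = 0.0341). With all arrays but 1, the count of members past the adjusted threshold was 4 without NL replicate 6 or 7, 3 without NL replicate 5 and 2 without LL replicate 4, beside 2.49% to 5.65% of all probe sets.

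Other members differed by sex only at an unadjusted p. Without NL replicate 6 these were, among those lower in males, Bdh1 (-0.32, SE 0.12, adjusted p = 0.127), Cpt1a (-0.24, SE 0.09, adjusted p = 0.141) and Vnn1, a pantetheinase (-0.75, SE 0.30, adjusted p = 0.155). Vnn1 ranged widely within each sex, from 5.42 to 9.47 in females and from 5.29 to 8.44 in males. Acads, the short-chain acyl-CoA dehydrogenase, was the member higher in males, by 0.18 (SE 0.07, adjusted p = 0.141). The peroxisomal thiolases Acaa1a and Acaa1b were higher in males at 0.28 (adjusted p = 0.0167) and 0.34 (adjusted p = 0.010) only without NL replicates 4 and 6, and at 0.18 (adjusted p = 0.357) and 0.19 (adjusted p = 0.533) without NL replicate 6 alone. Markers of other liver cells moved with sex as well. Of those measured, 3 of 5 endothelial, 3 of 4 macrophage and 3 of 6 stellate genes were lower in males at an unadjusted p under 0.05 without NL replicate 6, with 1 of each list past the adjusted threshold. Alas2, the only erythroid gene measured, was higher in males, with a log2 difference of 1.95 past the adjusted threshold. One of 4 biliary genes was higher and also passed, and of the 12 acute phase genes 4 were higher and 3 lower, with 4 past it. The mean endothelial signal ran from 7.73 to 8.29 in females and from 7.59 to 8.13 in males, the macrophage signal from 7.59 to 8.24 and from 7.23 to 8.11, and the stellate signal from 6.57 to 7.25 and from 6.23 to 6.70. None of the 8 hepatocyte genes differed at that threshold, with a median log2 difference of 0.01. The part of cell makeup was not tested, and in whole liver fewer cells of a type and less RNA per cell cannot be told apart.

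Members that work together were also followed across animals. Hadha and Hadhb encode the subunits of the trifunctional protein, which carries out the last steps for long chains. After the group and sex means were removed, they varied together over 29 arrays, with Pearson r = 0.84 and Spearman rho = 0.84 (permutation p = 1e-05 for each, the smallest that the resampling can give, adjusted over 4 pairs 2e-05). The r was 0.91 in 14 females (adjusted permutation p = 0.00012), 0.79 in 15 males (adjusted permutation p = 0.00144), 0.83 without NL replicate 4 and 0.85 without the 2 arrays farthest from the median of Hadha. With the weak array it was 0.97. Other pairs of members also had high r, such as 0.82 for Decr2 with Ppara over 29 arrays. The permutation p is against no relation at all, so whether this pair stands out among the members was not tested.

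The genes lie head to head on mouse chromosome 5 (GRCm38.p6), Hadha on the minus strand at chr5:30119423-30154980 and Hadhb on the plus strand at chr5:30155253-30184593. The 272 bases between their starts, at chr5:30154981-30155252, are shown because they are the only stretch that parts the pair. They are read on the plus strand, from the start of Hadha to that of Hadhb, with CpG dinucleotides in capitals (RefSeq, 60.3% G or C, 18 CpG).
Hadha to Hadhb: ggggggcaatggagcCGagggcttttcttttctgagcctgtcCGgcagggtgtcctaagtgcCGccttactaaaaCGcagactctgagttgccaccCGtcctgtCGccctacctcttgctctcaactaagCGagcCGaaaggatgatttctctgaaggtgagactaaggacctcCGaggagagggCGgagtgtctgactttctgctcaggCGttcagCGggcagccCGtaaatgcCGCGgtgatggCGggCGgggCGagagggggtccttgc

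The binding motif of PPAR alpha with its partner RXR is a direct repeat with 1 base between, AGGTCANAGGTCA. It was searched on both strands, exactly and with 1 free base in each repeat (AGGNCANAGGNCA), in windows from 250 bases before to 50 after the start of each gene in RefSeq. Of the 30 genes 25 have a window, in 26 windows. No match of either form was in these, and the exact form was in 0.0396% and the looser form in 0.381% of 32851 windows. This says only that these letters are not in these windows.

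Acaa1a and Acaa1b, near-identical genes on chromosome 9, had r = 0.96 and rho = 0.93 (permutation p = 1e-05, adjusted 2e-05) over 29 arrays. Their probe sets may each read both transcripts, so the pair is uncertain. Leaving out the 2 arrays farthest on Acaa1a gave r = 0.91.

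Pdk4 and Angptl4, both induced by PPAR alpha in fasting, had no clear relation over both sexes. Over 29 arrays r was -0.27 and rho -0.33 (permutation p = 0.157 and 0.0778, adjusted 0.209 and 0.104). In 15 males r was -0.66 (adjusted permutation p = 0.00948) and rho -0.67 (adjusted permutation p = 0.0106), and in 14 females r was -0.05 (adjusted permutation p = 0.859). The difference between the sexes was not tested. Without the 2 arrays farthest on Pdk4, r over both sexes was -0.34 (adjusted permutation p = 0.109), and without LL replicate 1 rho was -0.44 (adjusted permutation p = 0.0284) and r -0.31 (adjusted permutation p = 0.137). Ppara and Fgf21 had r = 0.03 and rho = -0.06 (permutation p = 0.865 and 0.765, adjusted 0.865 and 0.765). Signals of Fgf21 lay close to background, so this pair cannot show whether the factor and its target vary together.

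**Figure D5:**
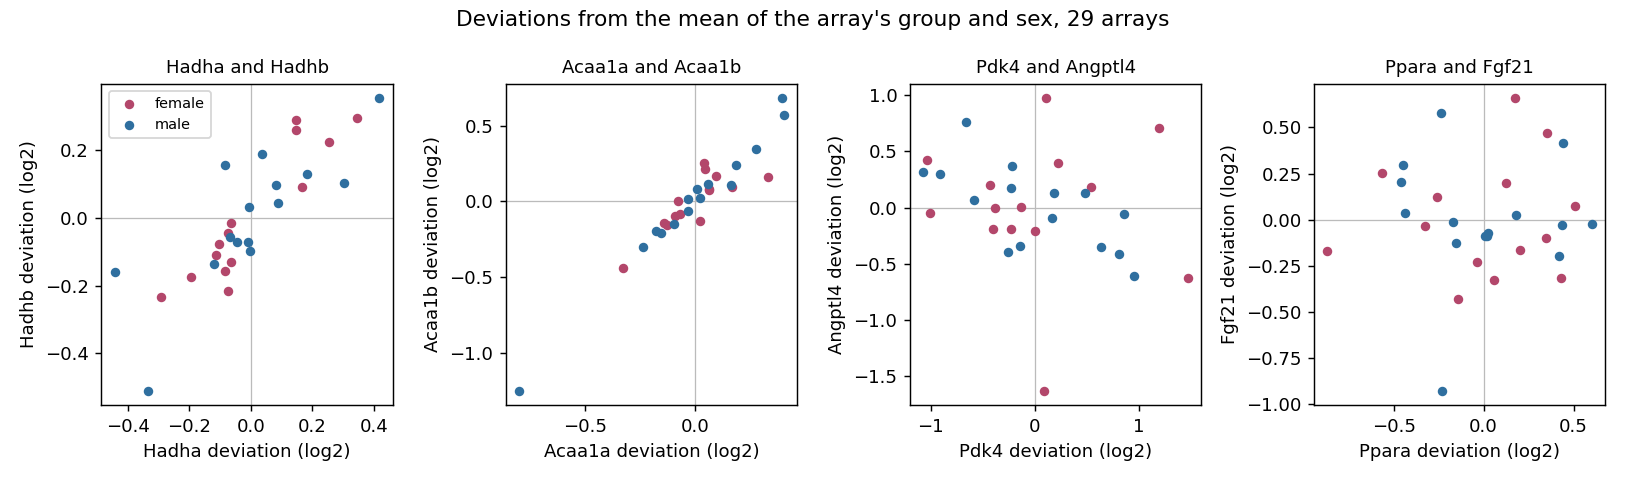
Deviations from the mean of the array's group and sex (log2, both axes) of 4 pairs of genes on 29 arrays without NL replicate 6, females and males in colour. Hadha with Hadhb (r = 0.84) and Acaa1a with Acaa1b (r = 0.96) lie along a line, while Pdk4 with Angptl4 (r = -0.27) and Ppara with Fgf21 (r = 0.03) scatter.

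Beyond the 31 genes, 66 of 74 further genes of fatty acid oxidation, ketone bodies and their control were measured. One passed the adjusted threshold between groups in any comparison without NL replicate 6, and none with all arrays. Hacl1, the peroxisomal lyase of the alpha-oxidation of branched chains, was higher in LN than in NN livers by 0.75 in both fits, with a SE of 0.14 (adjusted p = 0.0415) without NL replicate 6 and of 0.22 (adjusted p = 1) with all arrays. Its difference between LPD and NPD sperm was 0.55 (SE 0.10, adjusted p = 0.135). Of the 66, 8 were higher and 2 lower in LN livers at an unadjusted p under 0.05 without NL replicate 6, 4 higher and 1 lower in NL livers and 3 higher and 0 lower in LL livers. As shares these were 12.1% and 3.03% in LN livers beside 6.87% and 4.69% of all probe sets, 6.06% and 1.52% in NL livers beside 8.08% and 5.98%, and 4.55% and 0% in LL livers beside 5.60% and 2.83%. Ppargc1a, a coactivator of PPAR alpha, had a log2 difference of -0.54 in LN livers of both sexes together (SE 0.25, adjusted p = 0.404). In LN males it was -0.87 (SE 0.21, adjusted p = 0.115). The LN difference of males minus that of females was -0.79 (SE 0.32, adjusted p = 0.623). Acacb, whose product malonyl-CoA holds back the carnitine shuttle, had a log2 difference of 0.50 in NL livers (SE 0.13, adjusted p = 0.0984). In LN livers Acacb was at 0.38 with all arrays (SE 0.14, unadjusted p = 0.0112 in limma), not past the adjusted threshold. A difference above 0 was thus not particular to NL. The paper, which reported these arrays, gives higher acetyl-CoA carboxylase 2, the enzyme Acacb encodes, in LN than in NN offspring. Its discussion prints the symbol Acaca for this gene.

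Between the sexes 10 of the 66 were higher and 16 lower in males at an unadjusted p under 0.05 without NL replicate 6, 15.2% beside 8.58% and 24.2% beside 8.67% of all probe sets, and 17 passed the adjusted threshold, as did 5.65% of all probe sets. The peroxisomal thioesterases Acot3 and Acot4 were lower in males, at -3.97 (SE 0.19, adjusted p = 1.57e-15) and -1.44 (SE 0.10, adjusted p = 1.94e-11) on the log2 scale, and Abcd2, a peroxisomal importer of very long chains, at -2.40 (SE 0.19, adjusted p = 1.48e-10). The omega-hydroxylases Cyp4a12a and Cyp4a12b, close paralogs that probe sets may not part, were at 6.46 (SE 0.51, adjusted p = 1.8e-10) and, for the latter, 5.91 (SE 0.46, adjusted p = 1.23e-10), higher in males. Scp2, which includes a peroxisomal thiolase, was higher by 1.27 (SE 0.11, adjusted p = 1.28e-09). Each of these differences was larger in size than those of Acadl, Slc22a5, Hadh and Ehhadh.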

How the data were processed

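Livers of 30 offspring gave 1 array each. The authors made the deposited log2 signals with Partek Genomics Suite, and the background correction, summarisation and normalization are not given in the sources used here. Control probe sets (6923 of 29129) were set aside. The other 22206 were fitted with limma 3.58.1 (R 4.3.3), with 4 group means for both sexes together and 8 means of group and sex otherwise, and p-values were adjusted by Benjamini-Hochberg over the 22206. Groups and sex come from the labels.

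The members and gene lists were chosen with earlier results of these data known. Described in each comparison are up to 5 members per direction (6 between the sexes) with the smallest unadjusted p under 0.05, with all arrays and without NL replicate 6, or the 2 with the smallest p where there were none. Not every one so chosen is described, and other values given for members or arrays were picked after they were seen. Of the other pathway genes up to 3 per direction were eligible.

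The 61 exact two-sided permutation tests were not adjusted. Correlations of 4 pairs used 100000 resamples (Python 3.11.15, scipy 1.17.1, numpy 2.4.6, pandas 2.3.3). The alternatives were plain residual variance, which is the methods' analysis of variance, quantile normalization, median centring, a filter at the 40th percentile, array weights, a sex term, replicate numbers as a block, only the groups compared, an adjusted p under 0.01, and arrays left out, of which NL replicates 4 and 6 together was chosen after seeing the data. Etfa with Etfb, a planned pair, was not run. The procedure was tested on simulated data.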

Additional observations from a re-analysis of the deposited data

Results flagged for a closer look

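Among 120 sets of signals, 1 gene in 1 group each, and 4 of the members' median in 1 group, 23 held an array far from the others of its group by Dixon's test, which flags about 1 in 20 groups by chance. Of these, 15 were in NL replicate 6, the weak array. There the log2 signals were 7.60 for Cpt1a, 6.73 for Cpt2, 8.43 for Crot, 9.28 for Acadvl, 7.31 for Acadl, 7.05 for Acads, 7.76 for Hadha, 7.18 for Hadhb, 7.76 for Hadh, 7.40 for Echs1, 9.41 for Acaa2, 8.19 for Etfa, 7.73 for Etfdh, 6.57 for Eci2 and 5.23 for Decr1.

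In NN replicate 3, a female, Hadha at 10.86, Hadhb at 10.49 and Ehhadh at 11.96 stood above the other NN livers. Fgf21 was low in NN replicate 1 (3.83) and in LL replicate 9 (3.39). Eci2 (9.36) and Angptl4 (7.12) were low in LL replicate 4, and Eci1 (7.45), an isomerase for unsaturated chains, was low in NL replicate 4.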

How the results depend on the processing

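Values that answer a comparison stayed near the main value in 1489 alternatives and moved in 75. Named genes held direction and call in 2219, passed the adjusted threshold newly in 28, lost it in 1 (Slc22a5 between the sexes under the replicate block, -0.12, adjusted p = 1) and turned in 15. The causes were not tested. In what follows medians are of log2 differences over members, and counts are of members at an unadjusted p under 0.05.

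With NL replicate 6 and LL replicate 1 left out, with NL replicates 4 and 6 left out (added after seeing the data) and with array weights, the median was -0.0812, 0.0832 and 0.0125 for NL against NN, -0.1574, -0.0284 and -0.094 for NL against LN, -0.0288, -0.1442 and -0.0777 for the interaction, -0.2155, 0.0196 and -0.1528 for NL males, and -0.2651, -0.0345 and -0.2144 for the sex difference of NL. Quantile normalization gave -0.48 for NL males and -0.50 for the sex difference of NL. The count for NL against NN was 6 after median centring and 0 with only the groups compared. That for LN against NN was 1 after quantile normalization, centring or the percentile filter. That for NL against LN was 4 after quantile normalization, without NL replicate 6 and LL replicate 1 and with weights, 0 without NL replicates 4 and 6, and 1 with only the groups compared. Between the sexes the count was 5 with plain variance and 14 with weights, and members past the adjusted threshold were 3 after quantile normalization, 4 without NL replicate 6 and LL replicate 1, 5 without NL replicates 4 and 6 and 3 with weights. Bdh1 in NL males turned to 0.0114 without NL replicates 4 and 6.

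Leaving out 1 array at a time gave medians from -0.5098 to -0.0812 for NL against NN, -0.5226 to -0.1574 for NL against LN, -0.0118 to 0.4688 for the interaction, -1.05 to -0.22 for NL males and -1.12 to -0.27 for the sex difference of NL. Counts ran from 0 to 1 for LL against NN, 2 to 14 for NL against NN, 1 to 2 for LN against NN, 3 to 18 for NL against LN and 5 to 18 between the sexes, where 1 to 4 passed the adjusted threshold. In NL males 0 to 22 passed it. Cpt1a in the comparison of sperm diets, -0.01 with all arrays, turned positive without any of 10 arrays, at 0.0002 to 0.0777.

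Whether replicate numbers pair the arrays is not in the labels and could not be settled here. Deviations of same-numbered arrays had r from -0.21 to 0.19, and 6 of 39 pairs were over 0.1. Deviations of arrays with different numbers had r from -0.29 to 0.37, and 46 of 274 pairs were over 0.1. With the replicate block Cpt1a in the comparison of sperm diets was 0.0202. Between the sexes the replicate block gave a median of 0.17, 0 members past either threshold, and Vnn1 at 0.84, Bdh1 at 0.085 and Cpt1a at 0.31. Most numbers hold only 1 sex, so this block leaves little of the sex comparison. Fgf21 lay near background, where arrays measure changes poorly.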
